A study of Mus musculus with 12 samples.

Results

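The effect of the compound C13 was measured over both aggregate arms of a nascent RNA experiment. The cells were SIM-A9, an established line of microglia from C57BL/6 mice. All 12 libraries of the series entered: 6 from cells given C13 and 6 from cells given the solvent DMSO, each set split into 3 libraries with a sham preparation and 3 with TDP-43 aggregates. Within each gene the drug term was taken from a model with drug and aggregate as additive terms, and the genes reported as higher or lower are those with the same direction in the sham arm and in the aggregate arm. Values whose arms had opposite signs are given only as the other readout of such a gene or for a gene of interest, and are marked so. All cells, controls included, first received 10 µM polymixin B for 1 h. C13 at 10 µM or DMSO followed for 1 h, and then 5 µg/mL of sham or TDP-43 aggregates. After 2.5 h the uridine analogue 4-thiouridine was added at 100 µM for the last 90 min, so that the aggregates were present for 4 h in total. The replicates are labelled as biological, and all come from 1 cell line. The series' title calls C13 an inhibitor of MOK.

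MOK is a serine/threonine kinase of the MAP kinase superfamily, and MAP kinase signalling shapes the inflammatory output of microglia. TDP-43 is an RNA-binding protein that aggregates in amyotrophic lateral sclerosis and frontotemporal dementia, and microglia meet such aggregates when neurons release them. In SLAM-seq, 4-thiouridine built into new RNA is alkylated with iodoacetamide and is read as a T-to-C conversion, so that reads with conversions ("nascent") can be counted apart from all reads of the same gene ("total").

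The libraries held 17436397 to 41779882 reads, of which 552042 to 2722812 were nascent. The nascent share was 2.13% to 7.11% under DMSO and 1.88% to 3.30% under C13 (exact permutation test within arms, two-sided p = 0.385). Libraries of the 3′ end type were used, so that counts are not divided by gene length. Levels below are reads per 1e6 reads of the library (CPM) after TMM scaling, and differences are log2 fold changes, C13 over DMSO, with their standard error (SE). The C13 sham library 3 and the DMSO aggregate library 3 stood apart from the other 10 on the first principal component of the nascent counts, and values that leave them aside are given where that matters. The labelled cell type was checked against marker genes. Of 18 microglia and macrophage genes, P2ry12, Tmem119, Fcrls and C1qa had no nascent read in any library, and Fcrls had no read at all. The other 17 had total reads, and their summed level was 1020 to 1290 CPM under DMSO and 987 to 1510 CPM under C13. Several of them were low: P2ry12 reached at most 12.6 CPM, Mertk 4.54, Gpr34 1.79, Tmem119 1.45 and C1qa 1.34 CPM, each with a lowest value of 0. Csf1r, the receptor for colony-stimulating factor, stood at 136 to 289.9 CPM. Summed markers of fibroblasts reached at most 0.141 CPM in total reads, of astrocytes 1.76 CPM, of neurons 4.17 CPM and of oligodendrocytes 46.4 CPM. Endothelial markers summed to 100.0 to 149 CPM, with Kdr alone at 94.4 to 149 CPM and Cldn5, Cdh5 and Tek at 0.

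No gene passed the test in either table. Of 7078 genes with enough nascent reads and 11827 with enough total reads, 0 had a Benjamini-Hochberg adjusted p under 0.05 in edgeR's quasi-likelihood test (0% in each table). The smallest adjusted p was 0.795 among nascent genes (Retreg2) and 0.9997 among total genes (Stau1). DESeq2 on the same genes called 7 nascent and 6 total genes. On counts simulated with no difference, DESeq2 called 8.67 nascent and 5.33 total genes on average, and edgeR 0.333 and 0. The DESeq2 calls are therefore not read as genes shown to change. At an unadjusted p under 0.05 there were 281 nascent genes (3.97%), 116 higher (1.64%) and 165 lower (2.33%) under C13, and all 281 had the same direction in both arms. Among total genes there were 377 (3.19%), 160 higher (1.35%) and 217 lower (1.83%), of which 374 had the same direction in both arms (3.16%), 159 higher (1.34%) and 215 lower (1.82%). A small p for the drug term over both arms nearly requires 1 direction in both, so neither count shows that the arms agree. The genes below are therefore those that lead a ranking, not genes shown to change, and "higher" and "lower" state measured levels. In bulk RNA, fewer cells and less RNA per cell cannot be told apart. Scaling nascent reads by the depth of total reads moved the median of all nascent genes from -0.01 to -0.45, and under it Retreg2 stood at -3.46, Hmox1 at 0.80 and Srxn1 at 0.57.

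Over all genes tested, the direction of the C13 difference in one arm told little of its direction in the other. The drug term and both arms had 1 sign for 3344 nascent genes (47.2%), 1644 of them higher (23.2%) and 1700 lower (24%), and for 5407 total genes (45.7%), 2633 higher (22.3%) and 2774 lower (23.5%). Fitted on the 6 libraries of each arm alone, which share no library, the log2 fold changes correlated across genes at Pearson's r = -0.0527 and Spearman's rho = -0.0538 in the nascent table, and at r = -0.0792 and rho = -0.0947 in the total table. Genes are not independent replicates, and the 3 control libraries of an arm enter every gene of it. Of 470 nascent genes with p under 0.05 in the sham arm, 207 (44.0%) had the same sign in the aggregate arm. Of 529 total genes, 186 (35.2%) did. Both arms had p under 0.05 in the same direction for 12 nascent genes and in opposite directions for 16. For total genes the numbers were 12 and 75, so that opposite directions were the more common there. The 3 C13 and 3 DMSO libraries did not overlap in either arm, in the same direction, for 45 nascent (0.636%) and 47 total genes (0.397%). From group means of log2 CPM, the share of same-sign genes was 45.7% (nascent) and 45.6% (total) with all libraries, and 50.1% and 49.5% with those 2 outlying libraries left aside. A test of the difference between arms (interaction) called 0 genes in either table, with smallest adjusted p of 0.445 and 0.0741 in edgeR. At an unadjusted p under 0.05 it gave 537 (7.59%) and 941 (7.96%) genes.

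**Figure D1:**
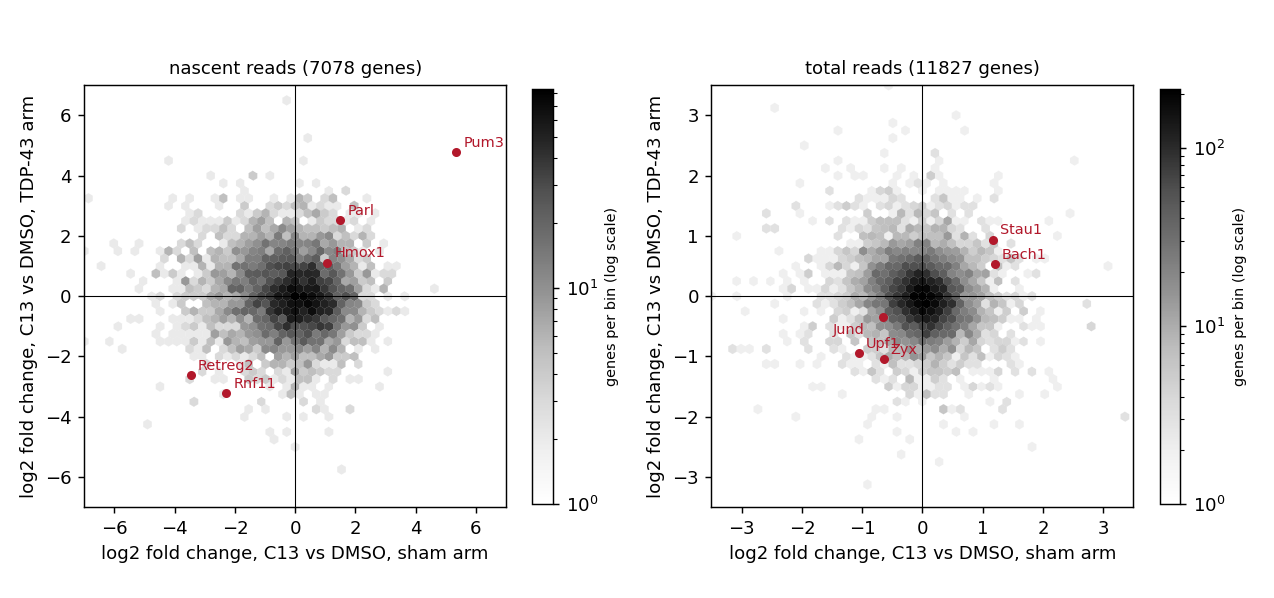
Log2 fold change of C13 over DMSO in the sham arm (x axis) and the TDP-43 aggregate arm (y axis), each fitted on its own 6 libraries, for 7078 nascent (left) and 11827 total (right) genes. Grey shade is the number of genes per bin on a log scale, red points are 5 named genes per panel, and 94 nascent and 599 total genes lie outside the axes. The clouds show no diagonal trend (r = -0.0527 and -0.0792), and the marked genes lie in the quadrants where both arms have 1 sign.

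Retreg2 had the smallest p among nascent genes. It encodes a reticulophagy regulator of the FAM134 family, membrane proteins that shape the endoplasmic reticulum and can direct it to autophagy. The gene lies at chr1:75142778-75147913 on the plus strand of GRCm38 and overlaps no other annotated gene. Its promoter window is shown because its nascent reads differed while its total reads did not. It is from RefSeq (GRCm38.p6, 250 bases before to 50 after the start), and its capitals mark the 2 matches to the E-box CACGTG, a motif found in 7.15% of 32851 promoters of that length.

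Retreg2, chr1:75142536-75142835, plus strand: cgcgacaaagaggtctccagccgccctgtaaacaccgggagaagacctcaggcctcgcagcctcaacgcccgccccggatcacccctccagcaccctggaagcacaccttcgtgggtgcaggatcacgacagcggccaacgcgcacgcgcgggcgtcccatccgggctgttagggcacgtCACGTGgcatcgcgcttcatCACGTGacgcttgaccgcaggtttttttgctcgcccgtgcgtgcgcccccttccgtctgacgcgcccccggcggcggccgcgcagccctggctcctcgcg

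Nascent Retreg2 stood at 251, 115 and 256 CPM in the DMSO sham libraries and at 258, 217 and 269.8 CPM in the DMSO aggregate libraries. Under C13 it was at 10.1, 10.6 and 35.7 CPM in the sham arm and at 90.4, 14.6 and 16.9 CPM in the aggregate arm. Every C13 library was below every DMSO library, and the highest C13 value came from the aggregate arm. The log2 fold change was -3.02 (SE 0.62), -3.46 in the sham arm and -2.61 in the aggregate arm (edgeR, unadjusted p = 0.00011, adjusted p = 0.795). Total Retreg2 did not separate the groups: it ranged over 112 to 205 CPM under DMSO and 144 to 217 CPM under C13, with a log2 fold change of 0.17 (SE 0.15; unadjusted p = 0.27). As a share of its own reads, nascent Retreg2 was 3.14% to 6.99% under DMSO (median 5.15%). Under C13 it was 0.143% to 2.02% (median 0.236%). The exact 95% interval was 2.65% to 3.70% for the lowest DMSO library and 1.59% to 2.53% for the highest C13 library, for counting error only. These intervals assume independent reads, and every Retreg2 count was an even number.

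Only Retreg2 passed in a model that set nascent against unlabelled reads within each library (0.0141% of 7078 genes). Its nascent reads fell relative to its unlabelled reads by 3.59 on the log2 scale (SE 0.57, adjusted p = 0.0492 in edgeR), and all 6 C13 shares were below all 6 DMSO shares. At an unadjusted p under 0.05 this model gave 257 genes (3.63%). The call depended on which libraries were used: it held without C13 sham library 3 (adjusted p = 0.0493) and without C13 aggregate library 1 (0.00681), and was lost without any of the other 10 libraries, where the adjusted p was 0.128 to 0.252. It was also lost with DESeq2's size factors (0.052) and without both libraries that stood apart (0.139). The log2 difference itself stayed between -4.00 and -3.40.

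**Figure D2:**
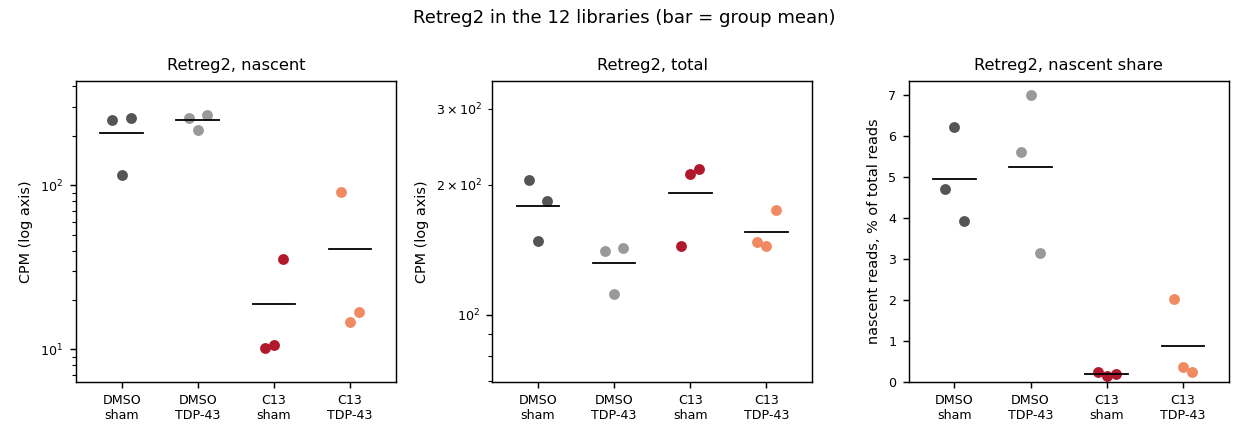
Retreg2 in the 12 libraries: nascent CPM (left, log axis), total CPM (middle, log axis) and nascent reads as a percentage of total reads (right). Points are libraries, bars are means of 3. Nascent levels of the 6 C13 libraries (10.1 to 90.4 CPM) lie below those of the 6 DMSO libraries (115 to 269.8 CPM), while total levels overlap.

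Several other leading nascent genes were nearly without nascent reads under C13. Abraxas2, a scaffold of the BRISC deubiquitinase complex, was at 1.93 to 92 CPM (median 19) under DMSO and at 0 in 5 of 6 C13 libraries, with 2.42 CPM in the last. Eps15l1, an endocytic adaptor, was at 2.71 to 145 CPM (median 19.1) under DMSO and at 0 to 2.43 CPM under C13, and the groups did not overlap. Crem, a cAMP-responsive transcription factor, had no nascent read under C13 but 704 in 4 of the 6 DMSO libraries. Set against 3 reads over the C13 group, the pooled Crem reads were at least 147-fold lower. This bound, like those of the same kind given below for other genes, covers counting error only. It assumes independent reads and leaves out the spread between libraries. The other 2 DMSO libraries also had no Crem read, so the groups overlapped. Abraxas2, Eps15l1 and Crem passed the count filter only through DMSO libraries, so that they had to differ in that direction. Tacc1, a centrosomal protein, was at 10 to 152 CPM under DMSO and 0 to 10.1 CPM under C13 (log2 fold change -3.61, SE 0.95). It too passed the filter only through DMSO libraries.

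Ubiquitin ligases and a repair enzyme followed. Rnf11 was at 23.4 to 424 CPM (median 107) under DMSO and at 10.1 to 33 CPM (median 19.7) under C13, a log2 fold change of -2.76 (SE 0.73). Rnf114 was at 11.1 to 79.8 CPM under DMSO and at 0 in 4 C13 libraries (-4.24, SE 1.16). Ung, the uracil DNA glycosylase of base excision repair, had the highest level of these genes. Its values were 438, 335 and 1312 CPM (DMSO, sham) and 552, 634 and 1018 CPM (DMSO, aggregates), against 294, 239 and 41.7 CPM (C13, sham) and 279, 340.1 and 145 CPM (C13, aggregates). One C13 library thus exceeded the lowest DMSO library, and the log2 fold change was -1.69 (SE 0.48). Dolpp1, of dolichol recycling, and Gm42420, a predicted gene that overlaps Adck2 and Ndufb2 on the same strand so that their reads cannot be told apart, completed the 10 leading lower genes, at -5.76 (SE 1.58) and -4.17 (SE 1.20). Total reads of Abraxas2, Eps15l1, Tacc1, Rnf114, Dolpp1, Ung and Crem had log2 fold changes from -0.28 to 0.18, with unadjusted p from 0.33 to 0.8 and, for all but Rnf114, opposite signs in the arms. Total Rnf11 was at -0.44 (SE 0.22, unadjusted p = 0.056) and total Gm42420 at -0.60 (SE 0.28, unadjusted p = 0.047). Of the 281 nascent genes, 105 (37.4%) passed the count filter only through DMSO libraries and 40 (14.2%) only through C13 libraries, and such genes had to differ. Dolpp1, Gm42420 and Rnf114 were among the 105, as were Abraxas2, Eps15l1, Crem and Tacc1. Among all 7078 the shares were 23.03% and 16.7%.

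Higher nascent levels under C13 were led by Parl, an intramembrane protease of the inner mitochondrial membrane that cleaves PINK1 and PGAM5. Its values were 74.2, 53.8 and 99.5 CPM (DMSO, sham), 55.2, 64.8 and 28.9 CPM (DMSO, aggregates), 294, 74.3 and 274 CPM (C13, sham) and 91.6, 282 and 493 CPM (C13, aggregates). In each arm 1 C13 library lay within the range of the 6 DMSO libraries. The log2 fold change was 2.01 (SE 0.55; unadjusted p = 0.0018). Total Parl was also higher, at 112 to 235 CPM against 55.4 to 135 CPM (0.56, SE 0.20, unadjusted p = 0.012). Bet1l, a Golgi SNARE, was at 66.8 to 209 CPM under DMSO and 105 to 956 CPM under C13, with 5 C13 libraries above the highest DMSO library (1.67, SE 0.50). Its gene overlaps Ric8a on the other strand and Gm45785 on the same one, and its total level was 0.65 (SE 0.30, unadjusted p = 0.043) higher on the log2 scale. Rnf157, a ubiquitin ligase, was 1.31 (SE 0.43) higher in nascent and 0.41 (SE 0.18, unadjusted p = 0.032) higher in total reads.

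Apart from Hmox1, which is described below with the NRF2 pathway, the remaining leading higher nascent genes had an unadjusted p of at least 0.32 in total reads. Emp3, a tetraspan membrane protein, was at 5.78 to 70 CPM under DMSO and 47.8 to 268 CPM under C13 (2.12, SE 0.66), but at 0.15 (SE 0.19) in total reads, with opposite signs in the arms. Pum3 and Taf2, a nucleolar RNA-binding protein and a TFIID subunit, were at medians of 0 and 1.65 CPM under DMSO and of 16.9 and 29.6 CPM under C13. Gcat, an enzyme of threonine breakdown, passed the count filter only through C13 libraries, as did Pum3 and Taf2. These genes therefore had to differ in that direction. Rcbtb1, Gcat and the orphan nuclear receptor Esrra were higher by 4.10 (SE 1.38), 3.17 (SE 1.05) and 2.34 (SE 0.80). Their total log2 fold changes were 0.50, 0.20 and -0.21, the last pair with opposite signs in the arms.

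Antioxidant genes of the NRF2 pathway had members with an unadjusted p under 0.05 in both tables. NRF2 (Nfe2l2) drives such genes from antioxidant response elements, and BACH1 occupies the same elements as a repressor. Srxn1, which encodes sulfiredoxin, the enzyme that repairs overoxidised peroxiredoxins, lies at chr2:152105516-152111376 on the plus strand and overlaps no other gene. Its promoter window from RefSeq (GRCm38.p6) is shown because it is the NRF2 target whose nascent groups did not overlap. The capitals mark 2 matches to the AP-1 motif TGANTCA, at bases 149 to 155 and 206 to 212, and 1 match on the minus strand to the antioxidant response element core TGACNNNGC, at bases 279 to 287. No marked motifs overlap here, although an AP-1 match can share letters with a response element. Only the form TGACNNNGC of that element was searched, so an overlap with another form would not be marked. On both strands together these motifs occur in 7.81% and 12.4% of the 32851 promoters.

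Srxn1, chr2:152105274-152105573, plus strand: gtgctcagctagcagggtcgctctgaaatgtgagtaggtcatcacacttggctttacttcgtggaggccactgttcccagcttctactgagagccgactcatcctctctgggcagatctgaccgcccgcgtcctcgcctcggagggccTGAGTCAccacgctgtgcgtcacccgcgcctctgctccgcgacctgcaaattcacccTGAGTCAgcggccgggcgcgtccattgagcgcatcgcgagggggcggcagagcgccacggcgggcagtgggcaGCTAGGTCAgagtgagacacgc

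Nascent Srxn1 stood at 374, 266 and 282 CPM (DMSO, sham) and 243, 368 and 355 CPM (DMSO, aggregates), against 531, 671 and 563 CPM (C13, sham) and 672, 717 and 462 CPM (C13, aggregates). All 6 C13 libraries were above all 6 DMSO libraries. The log2 fold change was 0.94 (SE 0.32), and 0.94 in each arm (edgeR, unadjusted p = 0.0088, adjusted p = 0.999). Nascent Hmox1, haem oxygenase 1, was at 526, 784 and 1142 CPM (DMSO, sham) and 738, 1173 and 1127 CPM (DMSO, aggregates). Under C13 it was at 1484, 2805 and 871 CPM in the sham arm and 1665, 3136 and 1768 CPM in the aggregate arm. Only C13 sham library 3, one of those that stood apart, lay within the DMSO range. The log2 fold change was 1.09 (SE 0.34, unadjusted p = 0.0045), and 1.26 without the 2 libraries that stood apart.

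Total reads of the same enzymes differed by less. Hmox1 was at 299 to 592 CPM (median 387) under DMSO and 271 to 892 CPM (median 725) under C13 (0.71, SE 0.26, unadjusted p = 0.014). Srxn1 was at 176 to 256 CPM against 182 to 348 CPM (0.44, SE 0.17, unadjusted p = 0.021). Abcc4, an efflux pump for organic anions, was at 33.8 to 61.1 CPM against 48.2 to 89.8 CPM (0.46, SE 0.18, unadjusted p = 0.019). As a share of their own reads, nascent Hmox1 (median 8.47% under DMSO, 8.52% under C13) and nascent Srxn1 (5.68% and 5.98%) differed by less than the spread between libraries. Bach1 had 6.49, 5.01, 5.69, 7.99, 8.75 and 7.64 CPM under DMSO and 11.5, 10.1, 17.9, 12.8, 9.42 and 13 CPM under C13 in the total table. Its groups did not overlap (0.86, SE 0.27, unadjusted p = 0.0062), while nascent Bach1 was 0.66 (SE 0.97).

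The NRF2 lists as a whole were mixed. Of 29 target genes tested in the total table, 0 were called. At an unadjusted p under 0.05 with 1 direction in both arms, 4 were higher and 0 lower, beside 1.34% and 1.82% of all genes. These were Hmox1, Srxn1, Abcc4 and the haem transporter Slc48a1 (0.39, SE 0.17), the last named after its value was seen. The list's median log2 fold change was 0.06, against -0.01 for all genes. Among nascent genes 2 of 26 were higher at that level and 0 lower, beside 1.64% and 2.33% of all genes. The nascent median was 0.07, and -0.37 to 0.20 over the alternatives. Nascent Gclm, a subunit of the enzyme that starts glutathione synthesis, was at 0.50 (SE 0.54), and Nqo1, a quinone reductase, had no nascent read in any library. Nfe2l2 itself was at 0.88 (SE 0.69) in nascent reads. Of 25 targets other than Hmox1 with a promoter window, 9 held the response element core, Srxn1 among them. Hmox1 has no entry in that table.

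**Figure D3:**
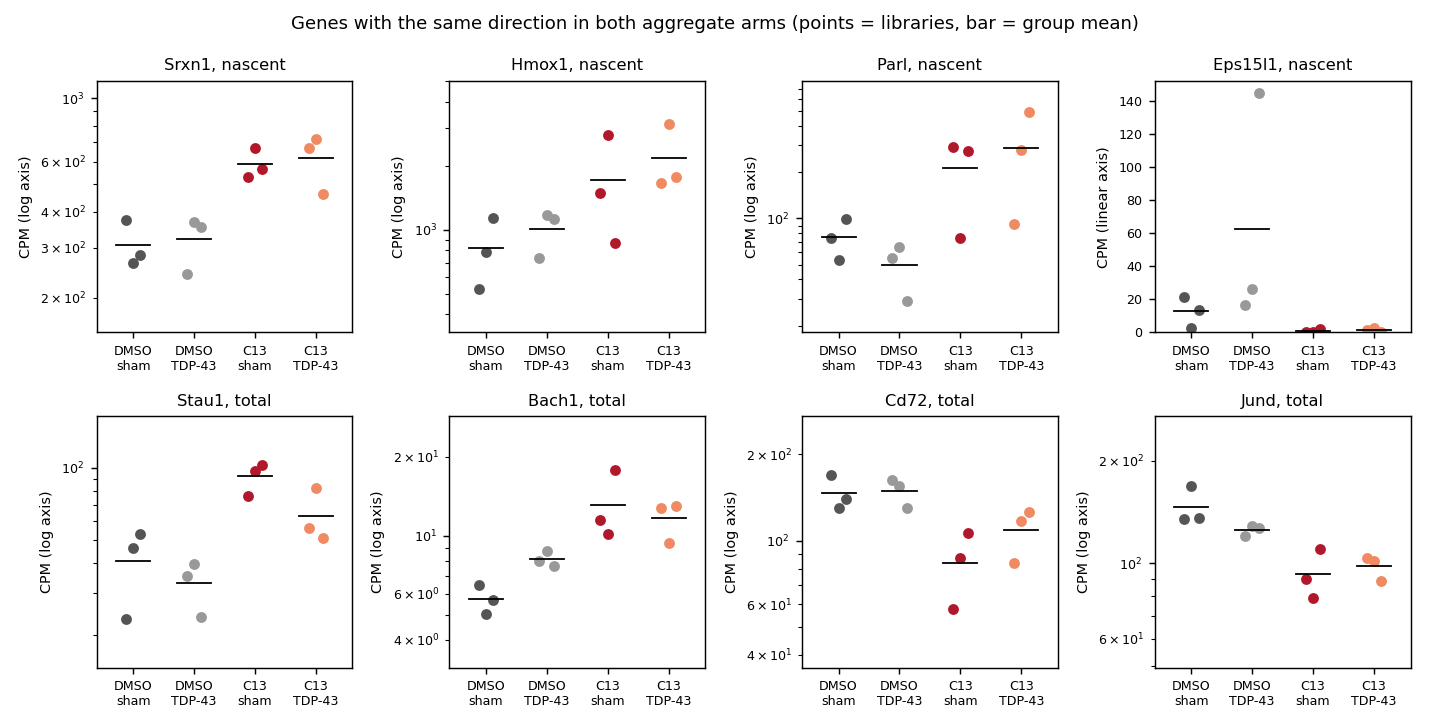
Levels (CPM) of 8 genes in the 12 libraries, nascent in the top row and total in the bottom row, with log axes except for Eps15l1, which has libraries at 0 and a linear axis. Points are libraries and bars are means of 3 in each of the 4 groups. Srxn1 and Bach1 are higher, and Eps15l1, Cd72 and Jund lower, in all 6 C13 libraries than in all 6 DMSO libraries, while Hmox1, Parl and Stau1 have at least 1 C13 library within the DMSO range.

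The total gene with the smallest p was Stau1, a double-stranded RNA-binding protein that targets bound mRNAs for decay together with the helicase UPF1. Stau1 stood at 23.4, 46.5 and 52.7 CPM (DMSO, sham) and 35.2, 39.7 and 23.8 CPM (DMSO, aggregates), against 76.2, 97.3 and 102 CPM (C13, sham) and 56.1, 81.9 and 50.8 CPM (C13, aggregates). One C13 library lay within the DMSO range. The log2 fold change was 1.05 (SE 0.22; edgeR, unadjusted p = 0.00018, adjusted p = 0.9997). Upf1, the helicase of nonsense-mediated decay, was among the leading lower genes. It was at 44.4, 34.8 and 25.5 CPM (DMSO, sham) and 38.9, 17.7 and 38.8 CPM (DMSO, aggregates), against 17, 20.9 and 12.5 CPM and 22.2, 15.1 and 12.4 CPM under C13. Its log2 fold change was -0.9995 (SE 0.25), with 2 C13 libraries within the DMSO range. Their nascent log2 fold changes were 1.54 (SE 1.00) and -1.07 (SE 1.03).

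Other leading higher total genes were Pard6a, a cell polarity adaptor, at 18.5 to 37.5 CPM against 34.4 to 72.5 CPM (0.84, SE 0.20), and Tmem219, a receptor for IGFBP3, at 40.3 to 103 CPM against 91.6 to 149 CPM (0.71, SE 0.18). Ilvbl and Lcmt1, a methyltransferase of protein phosphatase 2A, were higher by 0.75 (SE 0.23) and 0.56 (SE 0.17). The rest of the 10 had few reads. Plekha4 was at 0 in 5 DMSO libraries and at 0.0518 CPM in the last, and at 0.138 to 2.67 CPM in all 6 C13 libraries. Zfp758 was at 0 to 0.95 CPM against 0.52 to 9.31 CPM, and Gsdme, a pore-forming gasdermin, at 0.768 to 3.37 CPM against 2.49 to 8.64 CPM. Rab37 and Gm48102 had no read under DMSO and reads in 4 and 3 of the C13 libraries, which makes them at least 67.6-fold and 92.2-fold higher over the group, against 3 reads. Plekha4, Zfp758, Rab37 and Gm48102 passed the count filter only through C13 libraries, so that they had to differ in that direction. In all, 25 (6.68%) of the 374 total genes passed only through C13 and 40 (10.7%) only through DMSO, beside 6.09% and 7.09% of all 11827.

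Lower total genes included membrane and cytoskeletal proteins. Cd72, an inhibitory lectin receptor of myeloid and B cells, was at 169.6, 130.1 and 139.8 CPM (DMSO, sham) and 163, 156 and 130.4 CPM (DMSO, aggregates), against 57.7, 87.4 and 107 CPM (C13, sham) and 83.7, 117 and 126 CPM (C13, aggregates). The groups did not overlap. The log2 fold change of Cd72 was -0.63 (SE 0.17, unadjusted p = 0.0022) in total reads and -2.21 (SE 0.88, unadjusted p = 0.021) in nascent reads, where the groups overlapped. Zyx, the focal adhesion protein zyxin, was at 35.9 to 73.5 CPM under DMSO and 22.9 to 45.2 CPM under C13 (-0.85, SE 0.22). Xpo6, the nuclear exporter of actin, was at 36.8 to 64.6 CPM against 20.4 to 37.9 CPM (-0.77, SE 0.20). Msn, the membrane-to-actin linker moesin, did not overlap in total reads, at 260.2 to 339.7 CPM against 145 to 258 CPM (-0.36, SE 0.15, unadjusted p = 0.032), and was at -0.95 (SE 0.43, unadjusted p = 0.04) in nascent reads.

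Transcriptional regulators were also among the leading lower total genes. Jund, an AP-1 subunit, was at 135, 169 and 136 CPM (DMSO, sham), 119.9, 129 and 127 CPM (DMSO, aggregates), 90, 78.9 and 110.0 CPM (C13, sham) and 104, 101 and 88.9 CPM (C13, aggregates). All C13 libraries were below all DMSO libraries, and the log2 fold change was -0.50 (SE 0.14, unadjusted p = 0.0024). Nascent Jund was at -0.20 (SE 0.49) and had opposite signs in the arms. Bcor, a BCL6 corepressor, had no read under C13 and 410 reads in 4 DMSO libraries, at least 118.5-fold lower over the group. Trim46 and Mtus1 likewise had none under C13, against 408 and 220 reads in 5 DMSO libraries each, at least 117.9-fold and 63.6-fold lower. Tns2, a focal adhesion protein, was at 2.27 to 6.72 CPM in all DMSO libraries and at 0 in 5 of 6 C13 libraries. All 4 of Bcor, Trim46, Mtus1 and Tns2 passed the filter only through DMSO libraries, so that they had to differ in that direction, and stood at no more than 6.72 CPM in any library.

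In all, the 6 C13 and 6 DMSO libraries did not overlap for 17 nascent genes (0.24%), 6 higher (0.0848%) and 11 lower (0.155%). For total reads there were 12 (0.101%), 4 higher (0.0338%) and 8 lower (0.0676%). No gene was on both lists. The nascent genes higher under C13 included Hsd3b7, a bile acid synthesis enzyme, at 0 to 59.4 CPM against 60.9 to 232 CPM, and Mfn1, which fuses mitochondrial outer membranes, at 3.85 to 35.1 CPM against 40.5 to 99.2 CPM. Those lower included the growth factor Pdgfb, at 10 to 40.6 CPM against 0 to 8.1 CPM, and the receptor Igf1r, at 76.8 to 133 CPM against 21.2 to 74.9 CPM. Pdgfb passed the count filter only through DMSO libraries, so that it had to differ in that direction. The same held for Eps15l1, Eri1 and Fam135a among the 17. Gm48838 and Gm49388 passed only through C13 libraries and had to be higher. In total reads Pdgfb was also lower (-1.19, SE 0.45, unadjusted p = 0.019). Igf1r was at -0.22 (SE 0.16) there, Hsd3b7 at 0.01 (SE 0.22) and Mfn1 at -0.07 (SE 0.21), the last pair with opposite signs in the arms. The gene Gm49388 overlaps Hsd3b7 on the same strand and shares its pattern, so that their reads cannot be told apart. Among total genes the nucleolar protein Pwp2 was higher, at 11.6 to 14.9 CPM against 15.6 to 28 CPM. Cnih4, a cargo receptor of the early secretory pathway, was lower, at 69.5 to 109.9 CPM against 54 to 68 CPM. These genes were chosen after their values were seen.

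The kinase that the title names was barely measured. Mok had 2 nascent reads in 1 of the 12 libraries. Its total level was 1.39, 0.162 and 3.42 CPM (DMSO, sham), 7.73, 0.988 and 2.05 CPM (DMSO, aggregates), 0, 10.7 and 0.965 CPM (C13, sham) and 1.53, 8.22 and 1.33 CPM (C13, aggregates). The libraries of each group spread more widely than the groups differed (log2 fold change 0.63, SE 1.02, unadjusted p = 0.54). Its sign turned without C13 sham library 2 (-0.69).

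Inflammatory mediators showed no direction shared by nascent and total reads. Their nascent median was 0.13 over 9 genes, and -0.32 to 0.20 over the alternatives. In total reads the median was -0.10 over 19 genes, and -0.25 to -0.05 over the alternatives. There 12 were lower, 6 of them in both arms, against 23.5% of all genes. Nascent Tnf was abundant, at 379.7 to 2355 CPM (median 1235) under DMSO and 624 to 2285 CPM (median 1691) under C13, with a log2 fold change of 0.27 (SE 0.37, unadjusted p = 0.47). The ranges overlapped almost wholly, and without DMSO sham library 2 the value was 0.05. Total Tnf and Il1b had opposite signs in the arms, Il6 and Ifnb1 had no nascent read in any library, and Egr1 and Hspa1a had no read in either table. Nos2, the inducible nitric oxide synthase, was below the nascent count filter. It had 0 to 15.1 CPM under DMSO and reads in 1 C13 library, at 0.81 CPM (exact permutation test within arms, two-sided p = 0.02, smallest possible 0.005), 1 of 10 genes tested this way. Its total log2 fold change was -0.57 (SE 0.66). Cxcl2, a neutrophil chemokine, was lower in total reads at 58 to 145 CPM against 46.8 to 114 CPM (-0.39, SE 0.18, unadjusted p = 0.045), where the groups overlapped in the sham arm and not in the aggregate arm. Total Dusp1, a MAP kinase phosphatase, had 186 reads in 4 DMSO libraries and none under C13, at least 53.8-fold lower over the group. It passed the filter only through DMSO libraries, its levels were at most 2.21 CPM, and 2 annotated genes overlap it on each strand.

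Gene groups were described by 27 lists, and edgeR called 0 list members in either table. Without the count filter it called 1, total Mgst1 of the NRF2 targets, which was lower. The mitochondrial genome's list had no counted member. Total reads allowed a test of 34 interferon response genes, with 2 higher and 2 lower at an unadjusted p under 0.05 in 1 direction, beside 1.34% and 1.82% of all genes. The lower pair was Rtp4 (-1.001, SE 0.36) and the interferon regulator Irf7 (-1.11, SE 0.48), and the higher pair was Ifi35 (0.69, SE 0.30), named after its value was seen, and the RNA sensor Ifih1, at 0 in 5 DMSO libraries and at up to 2.42 CPM under C13. Ifih1 passed the count filter only through C13 libraries, so that it had to differ in that direction. The list's median was 0.02, with its sign turned in 8 of 20 alternatives. Of 20 genes of the unfolded protein response, 16 were lower in total reads, with a median of -0.16 and 9 lower in both arms, against 23.5% of all genes. In nascent reads 7 of 14 were lower and 7 higher, with a median of -0.06. At an unadjusted p under 0.05, 2 were lower in total reads, beside 1.82% of all genes. These were Pdia6, a protein disulfide isomerase (-0.34, SE 0.14, unadjusted p = 0.023), and Manf, a secreted ER stress factor (-0.35, SE 0.16, unadjusted p = 0.045).

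Genes for RNA-binding proteins related to TDP-43 had medians below that of all genes in both tables. Of 20 genes related to TDP-43, 15 were lower in nascent reads (median -0.37) and 15 in total reads (median -0.16, against -0.01 for all genes). In total reads 11 were lower in both arms, against 23.5% of all genes, and in nascent reads 8, against 24%. The median was -0.14 in the sham arm and -0.13 in the aggregate arm for total reads, but -0.0041 and -0.80 for nascent reads. Hnrnpa2b1, a splicing factor that binds TDP-43, was at 790.0 to 1036 CPM under DMSO and 497 to 891 CPM under C13 in the total table (-0.36, SE 0.15, unadjusted p = 0.027). Tardbp, the TDP-43 gene, had opposite signs in the arms in both tables. Splicing factors of the SR family and CLK kinases were lower for 15 of 20 genes in total reads (median -0.13). Of these, 10 were lower in both arms, against 23.5% of all genes. In nascent reads 6 of 19 were lower (median 0.15, and -0.32 to 0.30 over the alternatives). Cell cycle genes were divided: total Ccnd1, cyclin D1, was at -0.31 (SE 0.14, unadjusted p = 0.039) and total Ccne1, cyclin E1, at 0.86 (SE 0.36, unadjusted p = 0.029). Immediate-early genes had a nascent median of 0.58 over 13 tested genes, and -0.17 to 0.78 over the alternatives. Their total median was -0.05 over 20 genes.

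**Figure D4:**
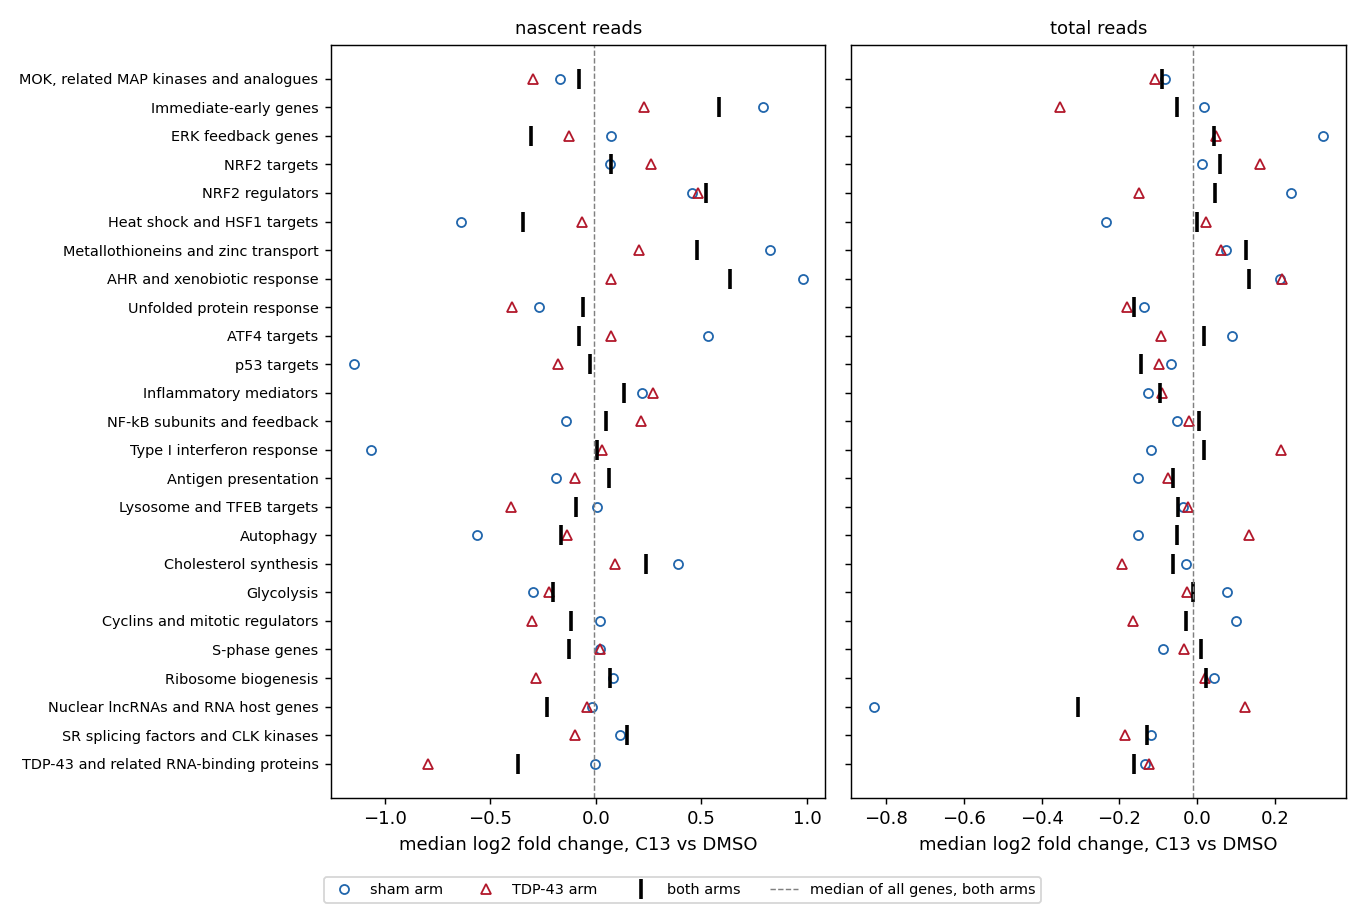
Median log2 fold change, C13 over DMSO, of 25 gene lists in nascent (left) and total (right) reads. Black bars are the drug term over both arms, circles the sham arm and triangles the TDP-43 aggregate arm, and the dashed line is the median of all tested genes (-0.01). Many lists have arms on opposite sides of the line. The TDP-43-related list has drug terms of -0.37 and -0.16, with its nascent sham arm at -0.0041.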

How the data were processed

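The 2 tables of raw read counts per gene, nascent and total, deposited by the authors, cover the 12 libraries. Per the labels' protocols, RNA was alkylated with iodoacetamide and libraries were made with a 3′ mRNA kit, and per the submitters' processing notes the build was GRCm38. The sources used here do not name the aligner, the counter, its use of strand or the rule for nascent reads, so reads of genes that overlap on either strand cannot be told apart. Of 9932 genes with a mean over 50 total reads, 1917 had 24 counts with a common factor of at least 2, so counts may not be independent reads. Of 30994 gene identifiers, 30922 matched a symbol, and positions come from GENCODE on GRCm38.

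Genes passed edgeR's filterByExpr (edgeR 4.0.16, R 4.3.3). Counts were scaled by TMM and fitted with glmQLFit on aggregate plus drug, and p-values were adjusted over all genes tested. Unlabelled reads were total minus nascent counts, and the joint model had a term for each library. Genes under the filter were compared with exact permutation tests over 400 arrangements within arms. The scripts were tested on simulated counts. DESeq2 1.42.0, limma 3.58.1 and other scalings, filters and library sets were alternatives. Named genes are the 10 highest and 10 lowest per table by p with 1 direction and 20 or more reads on average in the higher group, up to 3 per list, and 24 key genes. Where groups did not overlap, further genes were named afterwards. Members and lists were chosen with earlier results of these data known. No 2 replicates agreed within sampling noise (chi-square per degree of freedom of at least 27.7). Results for 1 key gene and its list are not reported here.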

Additional observations from a re-analysis of the deposited data

How the results depend on the processing

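The counts of genes called depended on the tool and the filter. With no filter, edgeR called 4 nascent genes (Bc1, Crem, Retreg2 and Stat5a) and 9 total genes (Bcor, Hmgn2, Matk, Mgst1, Nsmf, Stau1, Tns2, Trim46 and Zfp758). DESeq2 called 7 nascent genes (Abraxas2, Eps15l1, Retreg2, Rnf11, Rnf114, Tacc1 and Zfp638) and 6 total genes (Bcor, Plekha4, Stau1, Tns2, Trim46 and Zfp758). On counts simulated with no difference it called 8.67 and 5.33 on average. Leaving out each library in turn gave 0 nascent genes throughout and 0 to 2 total genes, the 2 (Fyn and Tns2) without C13 sham library 3. With the replicate number as a block, 0 nascent and 0 total genes were called, and the nascent against unlabelled call of Retreg2 was lost (0 genes, adjusted p = 0.0948 in edgeR). The numbers were not taken to pair the samples: deviations of same-numbered libraries correlated over 0.1 in 0 of 18 pairs for nascent and 5 of 18 for total reads (highest 0.233), against 2 of 36 pairs with different numbers in total reads. That model also gave 0 genes with DESeq2 size factors and without the 2 libraries that stood apart, and 0 to 1 when 1 library was left out. Of 104 gene values, 100 kept their sign in every alternative. Most of these were picked from the same libraries for a small p, for groups that did not overlap or for 1 direction in both arms. Few signs could therefore be expected to turn. The sign of nascent Cxcl10 turned with voom sample weights (0.90) and without the 2 libraries that stood apart (0.79). Its range when 1 library was left out was -1.30 to 0.30, with the higher end without DMSO aggregate library 3. Leaving out 1 library likewise, nascent Txnrd1 ranged from -0.58 to 0.30, turning without DMSO aggregate library 2 (its lowest value over all alternatives was -0.75), and total Mt1 from -0.034 to 0.27, turning without C13 sham library 2. Total Mok was -0.45 in the replicate block and ranged from -0.69, without C13 sham library 2, to 1.25. The causes were not tested. Of 51 list medians, 17 stayed within 0.1 of their value in every alternative. The medians of the TDP-43-related list stayed negative in all, at -0.73 to -0.19 (nascent) and -0.20 to -0.10 (total). The share of genes with 1 sign in both arms, tried after seeing the data, was 44.0% to 49.9% (nascent) and 43.3% to 48.6% (total) when 1 library was left out. Nascent depth limits all nascent values.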
